A study of Mus musculus with 4 samples.

Results

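The subunits of the mitochondrial respiratory chain and ATP synthase were examined in c-Kit-positive bone marrow cells of Mll-PTD, Runx1-null mice without and with Hif1a. Members were the protein-coding genes whose mouse symbol begins with Nduf, Uqcr, Cox4 to Cox8, Atp5, mt-Nd, mt-Co, mt-Cyt or mt-Atp, together with Sdha, Sdhb, Sdhc and Sdhd. These were 106 of the 28987 genes in the table, 93 encoded in the nucleus and 13 in mitochondrial DNA. By complex, the nuclear members were 44 of complex I, 4 of complex II, 8 of complex III, 20 of complex IV and 17 of complex V, and the mitochondrial ones were 7 of complex I, 1 of complex III, 3 of complex IV and 2 of complex V. The prefixes also take in 8 assembly factors of complex I, named Ndufaf, which build the enzyme and do not stay in it, and 2 associated factors, Cox7a2l and Atp5s. Ndufa4 and Ndufa4l2 were placed in complex IV, where the Ndufa4 protein is now assigned. A further 11 rows that carry these prefixes are annotated as pseudogenes and were left out.

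RNA was sequenced from cells that had been enriched for c-Kit (CD117), a receptor of stem and progenitor cells, on magnetic beads. The 2 Hif1a-null libraries came from C57BL/6 mice of genotype MllPTD/WT, Runx1 Flox/Flox and Hif-1α Flox/Flox with Mx1-Cre. The 2 Hif1a-intact libraries came from mice of genotype MllPTD/WT and Runx1 Flox/Flox with Mx1-Cre. All 4 libraries thus carry the partial tandem duplication of Mll, the floxed Runx1 and the recombinase. The sample titles label all 4 as Runx1-null. Mx1-Cre is driven by an interferon-inducible promoter that is active in many cell types, and deletion is not limited to blood cells. The comparison asks what differs in such progenitors when Hif1a is deleted as well. It is not stated in the labels that replicates are different animals, and the p-values therefore rest on the spread among these 4 libraries alone, which could be technical.

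The respiratory chain passes electrons from NADH through complex I, and from succinate through complex II, to ubiquinone, then through complex III and cytochrome c to complex IV, which reduces oxygen. Complexes I, III and IV pump protons, and complex V, the ATP synthase, uses the gradient to make ATP. All complexes except II mix subunits encoded in the nucleus with subunits encoded in mitochondrial DNA. HIF-1, of which Hif1a encodes the oxygen-regulated subunit, is known to turn cells towards glycolysis when oxygen is low, and haematopoietic stem cells are known for a low reliance on respiration.

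Values are TPM, a relative abundance per library. They are scaled to transcript length, so levels of different genes can be set side by side, but only roughly, above all for genes with near-identical copies. They sum to nearly the same total in each library, so a high value of one gene lowers the others. TPM keeps no read count, the depth of each library is unknown, and no counting interval can be given. Kit had 121 and 102 TPM in the Hif1a-null libraries and 128 and 126 TPM in the Hif1a-intact libraries. Summed markers of erythroid, megakaryocyte, lymphoid and mast cells differed much more. Those of granulocytes differed somewhat more, and those of macrophages and monocytes about as little. Erythroid markers summed to 7009 and 7454 TPM in the Hif1a-null libraries and 179 and 122 TPM in the Hif1a-intact libraries, with 11 of 12 called higher. Granulocyte markers summed to 41759 and 40600.4 TPM in the Hif1a-null libraries and 32848 and 28860.2 TPM in the Hif1a-intact libraries, with 6 of 12 called higher. Megakaryocyte markers (5 of 7 called higher), B-lineage markers (5 of 6) and T and NK markers (5 of 5) were also higher in the Hif1a-null libraries. Mast cell and basophil markers summed to 60.2 and 57.4 TPM there against 547 and 303 TPM in the Hif1a-intact libraries. Most of that was Cpa3, the 1 of 3 tested that was called lower. Cpa3 had 42.3 and 42.4 TPM in the Hif1a-null libraries and 526 and 289 TPM in the Hif1a-intact libraries. Mcpt8 was lower in the Hif1a-null libraries but did not pass, and Ms4a2 overlapped between the groups (log2 fold change 0.20). A further marker, Prss34, was listed at 0 throughout. Macrophage and monocyte markers summed to 154 and 158 TPM in the Hif1a-null libraries and 134 and 137 TPM in the Hif1a-intact libraries, with Ccr2 called higher and Adgre1 lower of 6 tested. Stem and progenitor markers summed to 326 and 331 TPM in the Hif1a-null libraries and 402 and 401 TPM in the Hif1a-intact libraries, with Hlf called higher and Gata2 lower of 5 tested. In bulk RNA, fewer cells of a type and less RNA per cell cannot be told apart, and the part of these cell types in the values below was not tested. Hif1a itself read 98.8 and 113 TPM in the libraries labelled Hif1a-null and 100.3 and 75.2 TPM in the Hif1a-intact libraries. A gene-level TPM includes exons outside the floxed part and does not check the deletion, so directions rest on the labels. Runx1, labelled null in all 4 libraries, had 48.4 and 46.7 TPM in the Hif1a-null group and 73.6 and 76.6 TPM in the Hif1a-intact group. Its gene-level TPM does not check the deletion either. An effect of that difference cannot be told apart from one of Hif1a.

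The libraries of the Hif1a-intact group lay farther apart than those of the Hif1a-null group, and more so for nuclear members than for genes in general. Over the 85 nuclear members tested, the median absolute difference on the log2(TPM + 1) scale was 0.16 within the Hif1a-null pair, 0.46 within the Hif1a-intact pair and 0.15 between the group means. Over all 11909 genes tested the same medians were 0.12, 0.26 and 0.25. In 69 of the 85 nuclear members the gap within the Hif1a-intact pair was wider than the gap between the groups. The same held for 6043 of all 11909 genes tested. Replicate 2 of the Hif1a-intact group was below replicate 1 in 67 of the 85 (78.8%), against 59.1% of all genes tested. The nuclear median turned on which library was left out and on the scaling. The median log2 fold change of nuclear members was -0.03 with all libraries, 0.15 without Hif1a-intact replicate 1, -0.25 without Hif1a-intact replicate 2 and 0.03 without Hif1a-null replicate 2. It was 0.05 after quantile normalization and 0.0055 after median-ratio rescaling, so no direction is given for the nuclear members.

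Respiratory chain transcripts showed no common direction. Of the 98 members tested, 1 was higher and 1 was lower in the Hif1a-null libraries at an adjusted p under 0.05 (limma, Benjamini-Hochberg adjustment over all genes), and 96 did not pass. Among all 11909 genes tested, 5.25% were called higher and 2.02% lower. The members' count called higher, 1 of 98, lies below the share of all genes, and the 1 of 98 called lower is near it. The median standard error was 0.21 over members and 0.17 over all genes tested, and its part in these counts was not tested. The called members were Ndufb4 (higher) and Ndufa3 (lower), both nuclear accessory subunits of complex I, and 0 of the 13 mitochondrial members passed. At an unadjusted p under 0.05 there were 7 of the 98 members, where 23.2% of all genes tested were (limma). The groups did not overlap with the Hif1a-null libraries higher in 12 members, where 22.7% of all genes did so, and with the Hif1a-null libraries lower in 19, where 32.3% of all genes did so. The median log2 fold change was -0.03 over members and -0.06 over all genes tested. For 70 of the 98 members, among them all 13 mitochondrial ones, the 95% interval of the fold change lay within 2-fold in either direction, so a larger change was outside the interval for these. For the other 28, Ndufb4 and Ndufa3 among them, the interval reached beyond 2-fold. The share with an interval within 2-fold, 71.4% of members, was near the 67.6% of all genes tested.

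**Figure D1:**
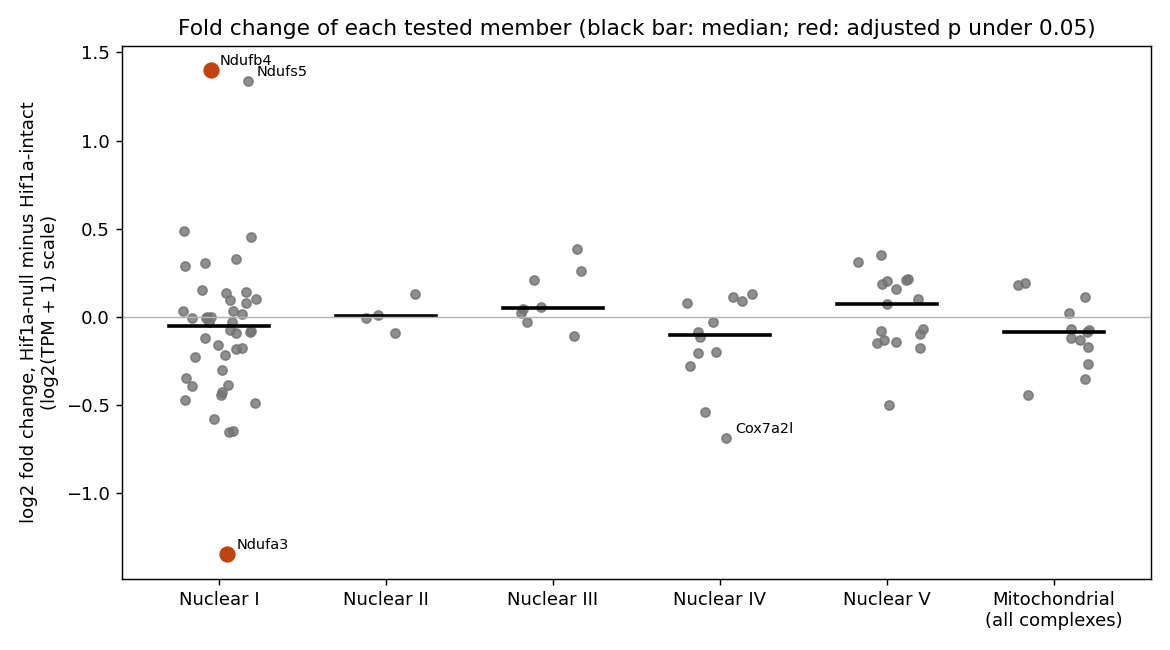
Log2 fold change of each of the 98 tested members (Hif1a-null minus Hif1a-intact, on the log2(TPM + 1) scale; vertical axis) by complex for nuclear members and for the mitochondrial members together. Black bars are medians, which lie between -0.10 and 0.07, and red points are Ndufb4 and Ndufa3, the members with an adjusted p under 0.05.

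Ndufb4 encodes an accessory subunit of the membrane arm of complex I (ENSMUSG00000022820, GRCm38 chr16:37647170-37654453, minus strand). It had 5.18 and 4.66 TPM in the Hif1a-null libraries and 1.33 and 1.15 TPM in the Hif1a-intact libraries. Both Hif1a-null libraries were above both Hif1a-intact ones. The log2 fold change was 1.40 (standard error 0.14, 95% interval 1.03 to 1.77; limma, adjusted p = 0.0149). Its mean level was below that of every other nuclear member of complex I except Ndufa11, and it has a processed pseudogene, Ndufb4c (chr15:73809507-73809896), whose 390 bases match its coding sequence with 0 differences. Ndufb4c had 45.1 and 51.6 TPM in the Hif1a-null libraries and 81.4 and 41.0 TPM in the Hif1a-intact libraries. Ndufb4 held 5.33% of the TPM the genes share. Summed with its copies, Ndufb4 had 50.3 and 56.2 TPM in the Hif1a-null libraries and 82.7 and 42.1 TPM in the Hif1a-intact libraries. The sum did not pass (log2 fold change -0.15; limma, adjusted p = 0.848). The joint values of the groups overlap. On its own, Ndufb4 also lost its call with no filter on low values and without either Hif1a-null library (limma, adjusted p = 0.0868, 0.216 and 0.223), and it was not tested with a filter of 5 TPM. The first 120 coding bases are shown because reads from them match both genes equally (GRCm38 chr16:37654240-37654359 and chr15:73809777-73809896, both minus strand).
Ndufb4 and Ndufb4c, coding bases 1 to 120: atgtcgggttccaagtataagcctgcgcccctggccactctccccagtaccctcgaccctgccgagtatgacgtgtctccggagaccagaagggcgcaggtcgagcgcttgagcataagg

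Ndufa3, another accessory subunit of the membrane arm, was the member called lower (ENSMUSG00000035674, GRCm38 chr7:3617373-3620327, plus strand). It had 40.1 and 31.7 TPM in the Hif1a-null libraries and 92.8 and 91.8 TPM in the Hif1a-intact libraries. All values of the Hif1a-null group were below those of the Hif1a-intact group, which lay close together. The log2 fold change was -1.35 (standard error 0.17, 95% interval -1.80 to -0.89; limma, adjusted p = 0.0252). No near-identical copy of Ndufa3 was found among the annotated transcripts, and its exons overlap those of Tfpt on the opposite strand by 4 bases. Its direction was the same in all alternatives, with log2 fold changes of -1.34 without Hif1a-intact replicate 1 and -1.36 without replicate 2, and -1.51 without Hif1a-null replicate 1 and -1.18 without replicate 2. The adjusted p was above the threshold in each of these 4 (limma, adjusted p = 0.0577, 0.0669, 0.176 and 0.310) and with no filter on low values (0.159), and it ran from 0.0143 to 0.310 over all alternatives.

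The stretches upstream of these genes are shown because sites for regulators of respiratory genes can be looked for there. In the 150 bases before the start of Ndufb4 (GRCm38.p6 chr16:37654454-37654603, minus strand) the capitals mark the match to the NRF1 consensus. NRF1 is a transcription factor known to drive many nuclear respiratory genes. In the 150 bases before the start of Ndufa3 (GRCm38.p6 chr7:3617223-3617372, plus strand) the capitals mark a match on the opposite strand to ACGTG, the core bound by HIF-1, which also lies in the E-box CACGTG.
Ndufb4 upstream: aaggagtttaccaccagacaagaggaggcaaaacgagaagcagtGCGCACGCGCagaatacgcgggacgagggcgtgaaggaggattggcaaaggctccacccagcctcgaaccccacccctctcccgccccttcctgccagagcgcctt
Ndufa3 upstream: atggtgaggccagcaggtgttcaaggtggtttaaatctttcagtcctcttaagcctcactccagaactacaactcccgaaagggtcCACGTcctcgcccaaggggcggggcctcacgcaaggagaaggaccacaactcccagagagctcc
Such matches are descriptions of letters and not evidence of binding. Windows of 250 bases before to 50 after the start came from RefSeq on GRCm38.p6 and were searched on both strands. Of the 93 nuclear members, 74 had a window. They include Cox6b2, Cox7a1, Cox7b2 and Cox8b, which were under the filter, whereas the coding genes compared below were all tested. Of these members, Cox7a1 and Cox8b carry ACGTG. The NRF1 motif was present in 19 of the 74 (25.7%), against 12.4% of the 8594 tested coding genes with a window and 4.60% of all 32851 windows. The YY1 consensus was present in 5 (6.76%), against 2.05% of tested coding genes and 0.633% of all windows. The ETS motif CCGGAAGT was present in 5 (6.76%), against 10.1% of tested coding genes and 3.89% of all windows, and ACGTG in 17 (23.0%), against 30.0% of tested coding genes and 19.6% of all windows.

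Among the other nuclear subunits of complex I, no difference passed the test. Mean levels of the nuclear members of complex I ran from 1.37 to 1054 TPM. Ndufb5, a membrane arm subunit, had the highest mean level of the nuclear members of complex I, with 1015 and 1169.9 TPM in the Hif1a-null libraries and 954 and 1079.7 TPM in the Hif1a-intact libraries. Its groups overlap, with a log2 fold change of 0.10, and its exons overlap those of Mrpl47 on the opposite strand by 616 bases. Ndufa12, an accessory subunit of the NADH-oxidising arm, had 752 and 889.6 TPM in the Hif1a-null libraries and 474 and 719 TPM in the Hif1a-intact libraries (log2 fold change 0.49; limma, adjusted p = 0.349). Ndufs5 had 15.2 and 24.5 TPM in the Hif1a-null libraries and 12.4 and 3.81 TPM in the Hif1a-intact libraries. Its log2 fold change of 1.34 was close to that of Ndufb4, but with a standard error of 0.57 it did not pass (limma, adjusted p = 0.268). In the other direction Ndufa1, a small membrane arm subunit, had 43.4 and 30.2 TPM in the Hif1a-null libraries and 68.3 and 48.5 TPM in the Hif1a-intact libraries, a difference that did not pass (log2 fold change -0.66; limma, adjusted p = 0.256).

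The core subunits that carry the redox centres of complex I showed no call. Ndufs1, which holds iron-sulphur clusters, had 53.4 and 52.1 TPM in the Hif1a-null libraries and 43.3 and 40.6 TPM in the Hif1a-intact libraries, without overlap, and did not pass (log2 fold change 0.33; limma, adjusted p = 0.233). Ndufv1, which binds NADH and flavin, had 37.5 and 29.8 TPM in the Hif1a-null libraries and 32.0 and 35.2 TPM in the Hif1a-intact libraries. Its groups overlap. Ndufs1 and Ndufv1 were chosen for their roles after the values were seen. Over the 44 nuclear members of complex I the median log2 fold change was -0.05, with 17 above and 27 below 0.

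The 8 assembly factors of complex I that share the prefix were counted apart. Their median log2 fold change was -0.21, with 3 above and 5 below 0, and 0 were called. An unadjusted p under 0.05 was found for 2 of the 8, near the share of all genes. Ndufaf7, a mitochondrial methyltransferase, had 2.98 and 2.55 TPM in the Hif1a-null libraries and 5.03 and 4.24 TPM in the Hif1a-intact libraries (log2 fold change -0.58; limma, adjusted p = 0.121). Ndufaf5, which hydroxylates Ndufs7, had 6.87 and 7.01 TPM in the Hif1a-null libraries and 9.99 and 9.39 TPM in the Hif1a-intact libraries (log2 fold change -0.43; limma, adjusted p = 0.149). In both genes the Hif1a-null libraries were the lower ones without overlap, at levels far below those of most subunits, and these 2 were picked out after their values were seen.

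Complex II, succinate dehydrogenase, is encoded in the nucleus alone and had the narrowest fold changes of the nuclear complexes, from -0.09 to 0.13. Sdha, the flavoprotein that oxidises succinate, had 525 and 529.6 TPM in the Hif1a-null libraries and 575 and 474 TPM in the Hif1a-intact libraries (log2 fold change 0.01). Sdhb, the iron-sulphur subunit, had 119.9 and 127 TPM in the Hif1a-null libraries and 100.2 and 126 TPM in the Hif1a-intact libraries (log2 fold change 0.13). The Hif1a-null values of Sdha lay between the Hif1a-intact ones, while those of Sdhb overlapped at the top. For the membrane anchors, too, the Hif1a-intact libraries enclosed the Hif1a-null ones. Sdhc had 73.2 and 67.6 TPM in the Hif1a-null libraries and 81.7 and 61.2 TPM in the Hif1a-intact libraries (log2 fold change -0.0078). Sdhd had 88.5 and 87.6 TPM in the Hif1a-null libraries and 105 and 83.7 TPM in the Hif1a-intact libraries (log2 fold change -0.09). For all 4 genes the 95% interval lay within 2-fold.

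Complex III, which passes electrons from ubiquinol to cytochrome c, had a median log2 fold change of 0.05 over its 8 nuclear members, with 6 above and 2 below 0 and none called. Uqcrc2, a core subunit, had 459 and 501 TPM in the Hif1a-null libraries and 439 and 364 TPM in the Hif1a-intact libraries. It was the only nuclear member of this complex without overlap and did not pass (log2 fold change 0.26; limma, adjusted p = 0.419). Uqcrc1, the other core subunit, had 167 and 178 TPM in the Hif1a-null libraries and 126 and 176 TPM in the Hif1a-intact libraries (log2 fold change 0.21). Uqcr11, a small accessory subunit, depended on which Hif1a-intact library was used. It had 70.2 and 70.9 TPM in the Hif1a-null libraries and 89.7 and 32.2 TPM in the Hif1a-intact libraries, so the Hif1a-null values lay between the Hif1a-intact ones. Its log2 fold change was 0.38 with all libraries (limma, adjusted p = 0.719), 1.11 without Hif1a-intact replicate 1 (limma, adjusted p = 0.0370) and -0.34 without Hif1a-intact replicate 2 (limma, adjusted p = 0.147). In both of these fits the spread came from the Hif1a-null pair alone, which is narrow for this gene, and the lone Hif1a-intact library was assumed to vary like it. Uqcrb, which binds ubiquinone, had 63.4 and 85.6 TPM in the Hif1a-null libraries and 65.8 and 96.2 TPM in the Hif1a-intact libraries (log2 fold change -0.11). Uqcrq, a small subunit beside cytochrome b, had 37.5 and 22.5 TPM in the Hif1a-null libraries and 43.0 and 20.4 TPM in the Hif1a-intact libraries (log2 fold change -0.03).

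Complex IV, cytochrome c oxidase, had a median log2 fold change of -0.10 over the 12 nuclear members tested, with 4 above and 8 below 0 and none called. With near-identical copies left out, Cox5a had the highest mean level of these members. It had 734 and 606 TPM in the Hif1a-null libraries and 757 and 517 TPM in the Hif1a-intact libraries, which enclose the Hif1a-null values (log2 fold change 0.09). Ndufa4 had 554 and 526 TPM in the Hif1a-null libraries and 638 and 382 TPM in the Hif1a-intact libraries (log2 fold change 0.13). Cox7b, a small membrane subunit, had 121 and 109.6 TPM in the Hif1a-null libraries and 194 and 145 TPM in the Hif1a-intact libraries. These groups do not overlap, but the difference did not pass (log2 fold change -0.54; limma, adjusted p = 0.207). Cox7a2 had 20.8 and 17.3 TPM in the Hif1a-null libraries and 34.3 and 15.6 TPM in the Hif1a-intact libraries (log2 fold change -0.28). Cox7c had 72.5 and 69.7 TPM in the Hif1a-null libraries and 68.2 and 63.3 TPM in the Hif1a-intact libraries, a small difference without overlap (log2 fold change 0.11; limma, adjusted p = 0.670).

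Several subunits of complex IV exist as a widely expressed isoform and one restricted to heart, muscle, lung or testis, or tied to oxygen. In every pair only the widely expressed isoform was above 1 TPM. Cox4i1 had 28.1 and 25.0 TPM in the Hif1a-null libraries and 44.8 and 20.7 TPM in the Hif1a-intact libraries (log2 fold change -0.20; limma, adjusted p = 0.818). Cox4i2, which HIF-1 induces in human cells in place of COX4I1, had 0.165 and 0.814 TPM in the Hif1a-null libraries and 0.678 and 0.847 TPM in the Hif1a-intact libraries, under the filter of 1 TPM in 2 libraries. Ndufa4l2, a known HIF-1 target that lowers complex I activity, was listed at 0 and 0.0314 TPM in the Hif1a-null libraries and at 0 and 0.0367 TPM in the Hif1a-intact libraries. Cox6a1 had 383 and 341 TPM in the Hif1a-null libraries and 374 and 312 TPM in the Hif1a-intact libraries, while its heart and muscle isoform Cox6a2 had 0.818 and 0.936 TPM in the Hif1a-null libraries and was listed at 0 in both Hif1a-intact ones. Cox6b1 had 274 and 238 TPM in the Hif1a-null libraries and 273 and 248 TPM in the Hif1a-intact libraries. Cox8a had 80.6 and 87.5 TPM in the Hif1a-null libraries and 108 and 73.6 TPM in the Hif1a-intact libraries. Both overlap between the groups, and their tissue isoforms Cox6b2, Cox8b and Cox8c were listed at 0 in all 4 libraries. Cox7a1 and Cox7b2 were listed at 0 in both Hif1a-null libraries, and read 0 and 0.169 TPM and 0 and 0.0815 TPM in the Hif1a-intact libraries. These 8 isoforms were the only members under the filter, with no library above 0.936 TPM. Marker genes of heart and skeletal muscle summed to 0.745 and 0.432 TPM in the Hif1a-null libraries and 2.45 and 1.13 TPM in the Hif1a-intact libraries. None of them passed the filter.

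With near-identical copies left out, complex V had the highest summed level of the nuclear complexes. With copies added, Cox7c of complex IV alone reached 9752 and 12846 TPM in the Hif1a-null libraries and 10113 and 9798 TPM in the Hif1a-intact libraries. Complex V had a median log2 fold change of 0.07 over 17 members, and no call. Atp5o, the subunit that joins the stalk to the catalytic head, had the highest mean of the nuclear members without copies. It had 2139 and 2372 TPM in the Hif1a-null libraries, inside the span of 1416 and 2660.3 TPM in the Hif1a-intact libraries (log2 fold change 0.21). Atp5j, another stalk subunit, had 809.9 and 846 TPM in the Hif1a-null libraries and 1005 and 777 TPM in the Hif1a-intact libraries (log2 fold change -0.09). Atp5b, the catalytic beta subunit, had 837 and 798 TPM in the Hif1a-null libraries and 779 and 558 TPM in the Hif1a-intact libraries, without overlap, and did not pass (log2 fold change 0.31; limma, adjusted p = 0.455). Atp5f1, the b subunit of the stalk, had 98.0 and 83.8 TPM in the Hif1a-null libraries and 95.5 and 110.0 TPM in the Hif1a-intact libraries (log2 fold change -0.18). Atp5mpl, a small membrane subunit, had 27.1 and 29.5 TPM in the Hif1a-null libraries and 59.1 and 27.4 TPM in the Hif1a-intact libraries. Replicate 1 of the Hif1a-intact group stands apart there, and the log2 fold change of -0.50 did not pass (limma, adjusted p = 0.529). The proton-carrying c subunit comes from 3 genes. Atp5g3 held most of its transcript, with 882 and 785 TPM in the Hif1a-null libraries and 826 and 674 TPM in the Hif1a-intact libraries. Atp5g2 lay between 83.3 and 89.8 TPM and Atp5g1 between 10.6 and 21.4 TPM over the 4 libraries.

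The 13 mitochondrial members ranged in mean level from 818 TPM (mt-Nd2) to 44549 TPM (mt-Co2), and none was called. In complex V, mt-Atp6, the proton channel subunit, had 9890.4 and 10046 TPM in the Hif1a-null libraries and 12747 and 14444 TPM in the Hif1a-intact libraries. It had the lowest fold change of the 13 and the groups do not overlap, but it did not pass (log2 fold change -0.44; limma, unadjusted p = 0.0290, adjusted p = 0.164). mt-Atp8, which overlaps mt-Atp6 by 43 bases on the same strand, had 20190.0 and 20615 TPM in the Hif1a-null libraries, inside the span of 29158 and 18141 TPM in the Hif1a-intact libraries (log2 fold change -0.17). The overlap means that reads there cannot be assigned to one of them by position alone.

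Of the mitochondrial subunits of complex I, mt-Nd5 had 860.4 and 831 TPM in the Hif1a-null libraries and 1051 and 1106 TPM in the Hif1a-intact libraries (log2 fold change -0.35; limma, unadjusted p = 0.0463, adjusted p = 0.206). mt-Nd6, the one member transcribed from the other strand, had 866 and 866 TPM in the Hif1a-null libraries and 995 and 1096 TPM in the Hif1a-intact libraries (log2 fold change -0.27; limma, adjusted p = 0.319). Both were lower in the Hif1a-null libraries without overlap and did not pass. mt-Nd1 had 3407 and 3324 TPM in the Hif1a-null libraries and 3699 and 3622 TPM in the Hif1a-intact libraries (log2 fold change -0.12). mt-Nd4 had a fold change of the opposite sign, with 2186 and 2151 TPM in the Hif1a-null libraries and 1990.3 and 1816 TPM in the Hif1a-intact libraries (log2 fold change 0.19), as did mt-Nd3, with 13324 and 14725 TPM in the Hif1a-null libraries and 12576 and 13296 TPM in the Hif1a-intact libraries (log2 fold change 0.12). These 3 do not overlap between groups either, and none passed. mt-Nd5 and mt-Nd6 overlap by 14 bases on opposite strands, and as the strand setting is not given, reads there cannot be told apart. mt-Nd2 had 842 and 801 TPM in the Hif1a-null libraries and 907 and 723 TPM in the Hif1a-intact libraries (log2 fold change 0.02).

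The catalytic subunits of complex IV overlapped between the groups. mt-Co1 had 2622 and 2409 TPM in the Hif1a-null libraries and 3459 and 2199 TPM in the Hif1a-intact libraries (log2 fold change -0.13). mt-Co2 had 41387 and 43825 TPM in the Hif1a-null libraries and 34494 and 58491 TPM in the Hif1a-intact libraries (log2 fold change -0.08). The Hif1a-intact libraries thus differ in opposite senses for these genes, and mt-Co2 over mt-Co1 was 15.8 and 18.2 in the Hif1a-null libraries and 9.97 and 26.6 in the Hif1a-intact libraries. mt-Co3 had 5675 and 5881 TPM in the Hif1a-null libraries and 6544 and 5755 TPM in the Hif1a-intact libraries (log2 fold change -0.09). The cytochrome b gene mt-Cytb of complex III had 1035 and 961 TPM in the Hif1a-null libraries, inside the span of 1129 and 684 TPM in the Hif1a-intact libraries (log2 fold change 0.18).

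**Figure D2:**
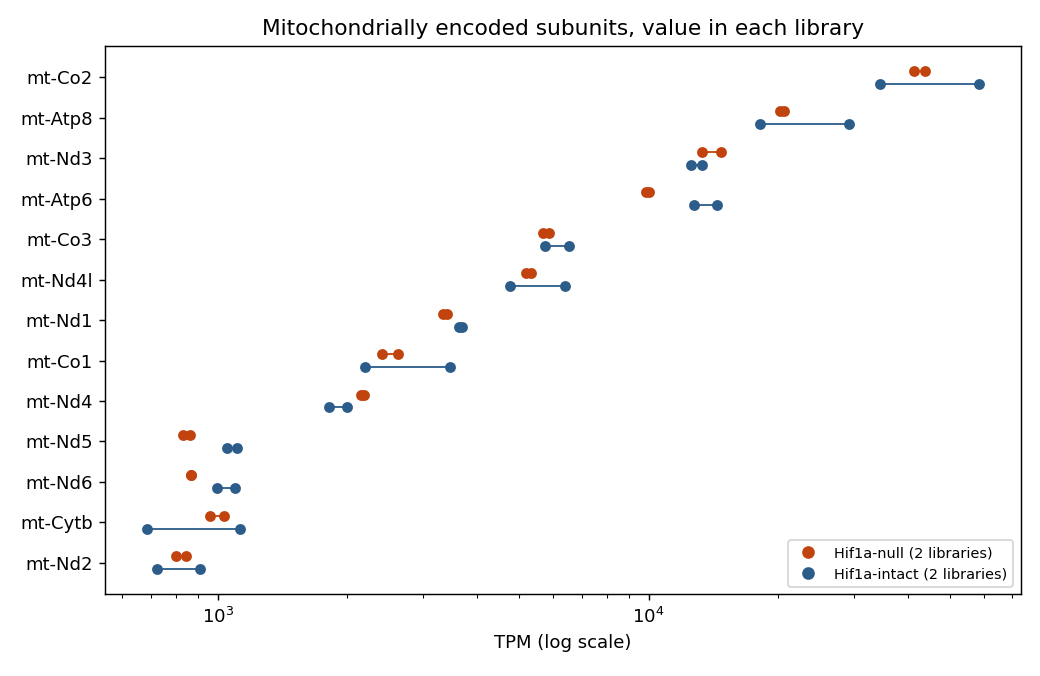
TPM of the 13 mitochondrially encoded members in each library (horizontal log axis), with the Hif1a-null pair above the Hif1a-intact pair in each row and a line joining the libraries of a group. The Hif1a-null points lie close together, while mt-Co2, mt-Atp8, mt-Co1 and mt-Cytb spread widely in the Hif1a-intact pair.

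mt-Nd4l, a membrane subunit of complex I, had 5333 and 5188 TPM in the Hif1a-null libraries and 4759 and 6383 TPM in the Hif1a-intact libraries (log2 fold change -0.07). A pseudogene on chromosome 1, Gm10222 (GRCm38 chr1:24612407-24612700), matches it without difference over 294 bases, and the table lists the same TPM for both in every library. The first 120 coding bases, shared by the genes (GRCm38 chrM:9877-9996, plus strand, and chr1:24612581-24612700, minus strand), are shown because reads from them match both.
mt-Nd4l and Gm10222, coding bases 1 to 120: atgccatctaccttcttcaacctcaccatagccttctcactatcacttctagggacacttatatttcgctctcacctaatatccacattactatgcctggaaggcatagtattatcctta

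Summed by genome of origin, mitochondrial members reached 107617 and 111623 TPM in the Hif1a-null libraries and 113507 and 127758 TPM in the Hif1a-intact libraries. Nuclear members reached 14057 and 14140.1 TPM in the Hif1a-null libraries and 14001 and 13277 TPM in the Hif1a-intact libraries. The groups do not overlap in either sum, and the exact two-sided permutation test gave p = 0.33 for each, the smallest that 2 libraries against 2 allow. The separation of the nuclear sum is lost when near-identical copies are added, with 26529.8 and 29530.0 TPM in the Hif1a-null libraries and 26655 and 25651 TPM in the Hif1a-intact libraries (exact permutation p = 0.667). Most of the added TPM came from Gm12338, a pseudogene copy of Cox7c. The ratio of the Hif1a-null to the Hif1a-intact mean was 0.909 for the mitochondrial sum and 1.03 for the nuclear sum without copies. Mitochondrial members took 11.2% and 11.6% of the library total in the Hif1a-null libraries and 11.8% and 13.4% in the Hif1a-intact libraries. The mitochondrial sum over the nuclear sum was 7.66 and 7.89 in the Hif1a-null libraries and 8.11 and 9.62 in the Hif1a-intact libraries (exact permutation p = 0.33). Of the mitochondrial sum, mt-Co2 and mt-Atp8 made up the larger share. Without them it was 46040.0 and 47183 TPM in the Hif1a-null libraries and 49856 and 51126 TPM in the Hif1a-intact libraries.

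By complex and without near-identical copies, the sums of complexes I, III and IV overlapped between the groups in the mitochondrial genome. Those of complexes I to IV in the nuclear genome did so too. Only the complex V sums were apart, in opposite senses. The mitochondrial complex V sum was 30080.4 and 30661 TPM in the Hif1a-null libraries and 41904 and 32586 TPM in the Hif1a-intact libraries. The nuclear complex V sum was 5849.6 and 5941 TPM in the Hif1a-null libraries and 5374 and 5821 TPM in the Hif1a-intact libraries (exact permutation p = 0.33 for both, the smallest possible). With near-identical copies added, the nuclear complex V groups overlap, while the nuclear complex III groups come apart.

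**Figure D3:**
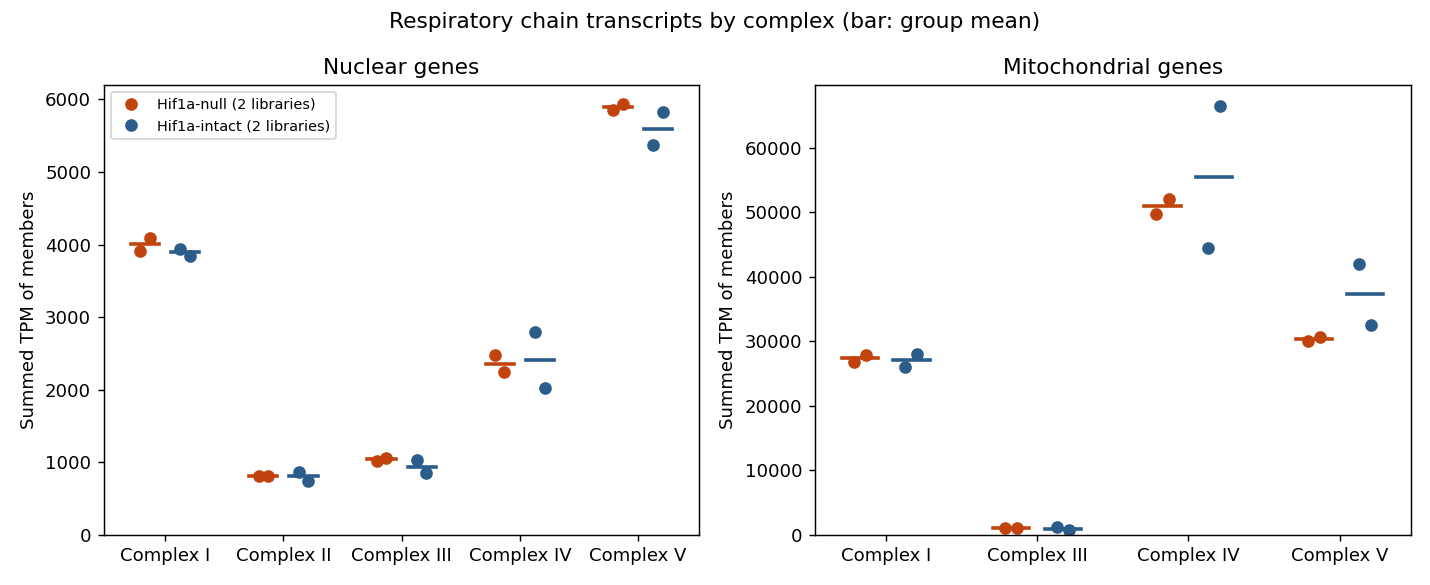
Summed TPM of nuclear members (left) and mitochondrial members (right) by complex, 1 point per library with the Hif1a-null group left of the Hif1a-intact group and bars for group means. The Hif1a-intact points of mitochondrial complex IV lie at 44497 and 66445 TPM, wider apart than the difference between the group means.

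Many nuclear subunits have near-identical copies among the annotated genes, and the table lists values for both. A copy in the table (at least 95% identity over at least 100 bases and 50% of the shorter transcript) was found for 27 of the 93 nuclear members, and for 16 of them the copies summed to over 1 TPM on average. In 2 of these, Atp5o and Ndufb8, the gene counted as a copy lies at the member's own locus and overlaps it (Gm15976, antisense, and Gm20538, on the same strand). In 8 the copies held more TPM than the member: Cox7c, Ndufb4, Cox6c, Ndufc1, Cox7a2l, Atp5l, Atp5g1 and Atp5f1. Cox7c held 0.644% of the TPM it shares with its copies. One of them, Gm12338, a processed pseudogene of 192 bases (GRCm38 chr11:75599763-75599954), had 9679.7 and 12776 TPM in the Hif1a-null libraries and 10045 and 9735 TPM in the Hif1a-intact libraries, above any nuclear member. The stretch below is identical between Cox7c (chr13:86045753-86045871, minus strand) and Gm12338 (chr11:75599763-75599881, minus strand) and is shown because reads from it match both.
Cox7c and Gm12338, coding bases 32 to 150: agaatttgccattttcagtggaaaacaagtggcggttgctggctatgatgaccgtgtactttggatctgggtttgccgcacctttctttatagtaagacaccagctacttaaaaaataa

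Cox7a2l, one of the 2 associated factors, and its copy had fold changes of opposite sign. Cox7a2l had 71.3 and 64.3 TPM in the Hif1a-null libraries and 140.2 and 85.9 TPM in the Hif1a-intact libraries, a difference that did not pass (log2 fold change -0.69; limma, adjusted p = 0.243). Gm6969, a processed pseudogene with 98.0% identity over 342 bases (GRCm38 chr12:24638669-24639010), rose to 432 and 541 TPM in the Hif1a-null libraries, against 232 and 214 TPM in the Hif1a-intact libraries (log2 fold change 1.11; limma, adjusted p = 0.0391). Their sum was 503 and 605 TPM in the Hif1a-null libraries and 372 and 299.6 TPM in the Hif1a-intact libraries, which did not pass (log2 fold change 0.72; limma, adjusted p = 0.119). Cox6c held 6.06% of its joint TPM, the rest being Cox6c2, which had 1271 and 1021 TPM in the Hif1a-null libraries and 1235 and 1599 TPM in the Hif1a-intact libraries. For Ndufc1, the gene counted as a copy is Gm11032, annotated as protein-coding, with 482 and 439 TPM in the Hif1a-null libraries and 489.9 and 111 TPM in the Hif1a-intact libraries. Gm11032 matches Ndufc1 with 96.0% identity over only 101 bases, where the longest coding transcript of Ndufc1 has 1249 bases. How much of the TPM of Gm11032 comes from reads that match both genes was not tested. All copies of nuclear members together summed to 12473 and 15390 TPM in the Hif1a-null libraries and 12654 and 12374 TPM in the Hif1a-intact libraries. These totals lie near the sums of the nuclear members themselves, and above that sum in Hif1a-null replicate 2. Gm12338 alone made up most of each total, with 9679.7 and 12776 TPM in the Hif1a-null libraries and 10045 and 9735 TPM in the Hif1a-intact libraries.

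**Figure D4:**
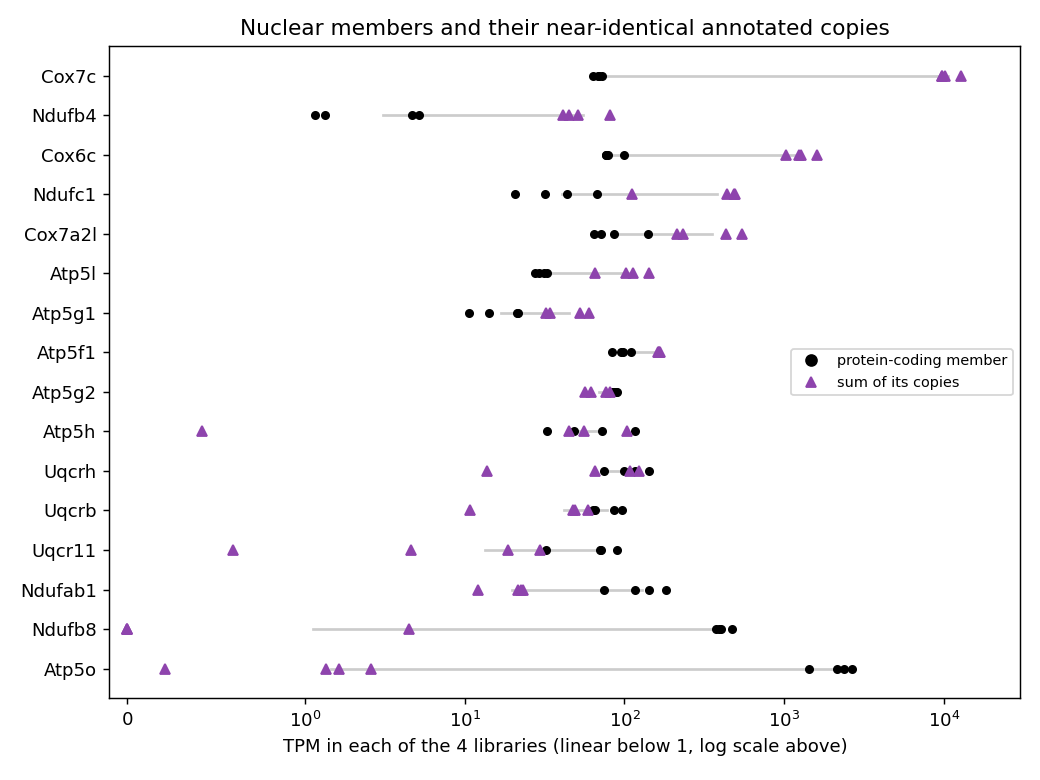
TPM of each nuclear member whose copies sum to over 1 TPM (black points, 1 per library) and of the sum of its copies (purple triangles), on an axis that is linear below 1 and logarithmic above. Grey lines join the means, and in the upper 8 rows, from Cox7c to Atp5f1, the copies hold more TPM than the member. For Ndufb8 and Atp5o the gene counted as a copy overlaps the member itself, and for Ndufc1 the match covers only 101 bases.

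The median gap within the Hif1a-intact pair was wider in members with short transcripts, and was present in longer ones too. Among the widest single gaps, Atp5k (371 bases) had 111 and 47.3 TPM in the Hif1a-intact pair and Uqcr11 (445 bases) had 89.7 and 32.2 TPM, each lower in replicate 2. Atp5h (682 bases), a stalk subunit, differed the other way, with 32.9 and 116 TPM. Gaps as wide were found in longer transcripts, with 67.2 and 20.5 TPM for Ndufc1 (1249 bases) and 183 and 74.1 TPM for Ndufab1 (3479 bases). With members split by their longest coding transcript, replicate 2 minus replicate 1 of the Hif1a-intact group had a median of -0.55 on the log2(TPM + 1) scale in the 28 shortest (up to 732 bases), -0.33 in the middle 29 and -0.28 in the 28 longest (above 1251 bases). A split by the median coding transcript, which was tried first and replaced because fragment transcripts made long genes such as Ndufs1 look short, gave -0.71, -0.29 and -0.28. Both splits were made after the values were seen. Over the 85 members the rank correlation (Spearman) of length with that difference was 0.16 for the longest and 0.20 for the median transcript. It is a description over genes of the same libraries, weak in either form. Among all tested coding genes with transcripts as short as the shortest members (235 genes) the median was -0.37, and in those as long as the longest members it was -0.07. Annotated pseudogenes took 16.3% and 15.7% of TPM in the Hif1a-null libraries and 20.7% and 17.7% in the Hif1a-intact libraries, and their part in these gaps was not tested.

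**Figure D5:**
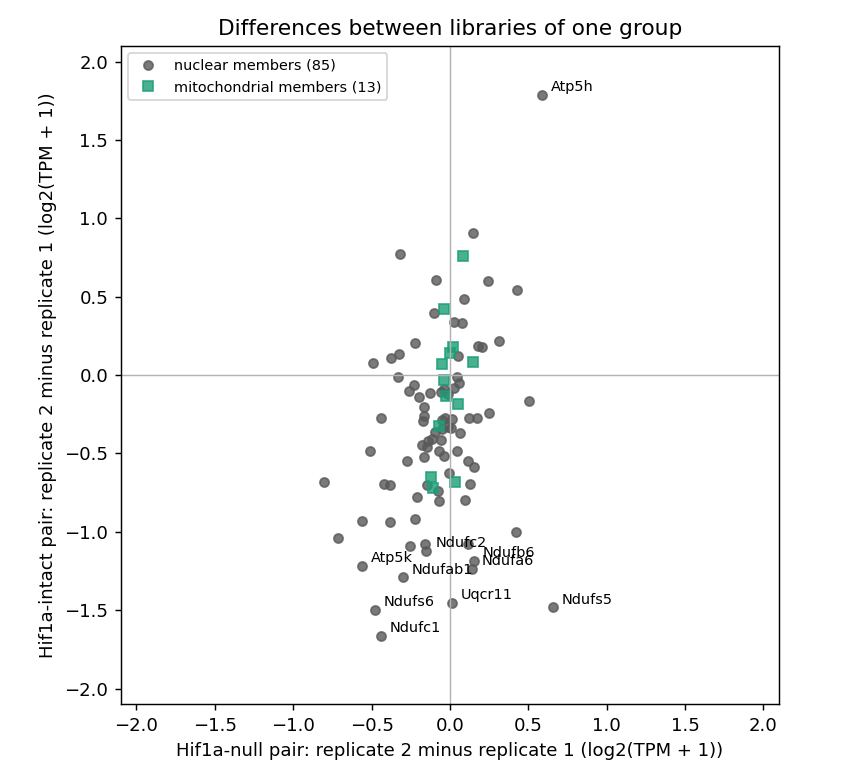
Difference between the libraries of each group for the 98 tested members (replicate 2 minus replicate 1, log2(TPM + 1)), with the Hif1a-null pair on the horizontal and the Hif1a-intact pair on the vertical axis. Points spread over a wider range vertically than horizontally, and 67 of the 85 nuclear members lie below 0 on the vertical axis.

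Genes that serve the respiratory chain but lie outside the member rule were read from lists of known function. Among electron carriers, ubiquinone synthesis genes and Cyc1, 0 of 17 tested were called and the median log2 fold change was 0.06. Cyc1 encodes cytochrome c1, a subunit of complex III that the rule leaves out, and its groups overlap (log2 fold change 0.14). The genes of smallest p in this list were in ubiquinone synthesis. Coq7 had 9.20 and 10.8 TPM in the Hif1a-null libraries and 7.04 and 5.46 TPM in the Hif1a-intact libraries (log2 fold change 0.61; limma, adjusted p = 0.151), and Coq8b had 11.04 and 9.46 TPM there against 14.0 and 16.3 TPM in the Hif1a-intact libraries (log2 fold change -0.52; limma, adjusted p = 0.157). Among assembly factors outside the prefix, 0 of 39 were called and the median was 0.01. Surf1, an assembly factor of complex IV, had 40.2 and 35.5 TPM in the Hif1a-null libraries and 57.7 and 50.8 TPM in the Hif1a-intact libraries (log2 fold change -0.51; limma, adjusted p = 0.151). Cox10, which makes the haem of complex IV, had 2.91 and 2.59 TPM in the Hif1a-null libraries and 3.86 and 4.14 TPM in the Hif1a-intact libraries (log2 fold change -0.42; limma, adjusted p = 0.172).

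Genes that transcribe, copy and stabilise mitochondrial DNA and its RNA had 0 of 20 called, with a median of -0.03. Polg, the mitochondrial DNA polymerase, had 99.2 and 82.5 TPM in the Hif1a-null libraries and 112 and 134 TPM in the Hif1a-intact libraries (log2 fold change -0.43; limma, adjusted p = 0.249). Mgme1, a mitochondrial exonuclease, had a log2 fold change of -0.23 (limma, adjusted p = 0.385). Regulators of mitochondrial biogenesis had 0 of 9 called and a median of -0.07. Among them Tfeb, a regulator of lysosomes and mitochondria, had 8.06 and 6.44 TPM in the Hif1a-null libraries and 10.6 and 10.3 TPM in the Hif1a-intact libraries (log2 fold change -0.48; limma, adjusted p = 0.181), and Esrra, an activator of respiratory genes, had a log2 fold change of 0.33 (limma, adjusted p = 0.252).

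Enzymes of the TCA cycle, which feed the chain, had 0 of 18 called and a median of -0.0026. Idh2, the mitochondrial isocitrate dehydrogenase that uses NADP, came nearest to the threshold. It had 172 and 169 TPM in the Hif1a-null libraries and 263 and 251 TPM in the Hif1a-intact libraries, without overlap (log2 fold change -0.59; limma, adjusted p = 0.0779). Ogdh, a subunit of the oxoglutarate dehydrogenase complex, had 43.0 and 44.4 TPM in the Hif1a-null libraries and 65.4 and 54.3 TPM in the Hif1a-intact libraries, without overlap (log2 fold change -0.44; limma, adjusted p = 0.198). Known HIF-1 targets that act on mitochondria had 1 of 9 called, lower, and a median of -0.03. That gene was Ak4, a mitochondrial adenylate kinase, which had 2.83 and 5.44 TPM in the Hif1a-null libraries and 20.2 and 21.2 TPM in the Hif1a-intact libraries (log2 fold change -2.13; limma, adjusted p = 0.0294). Bnip3, which marks mitochondria for removal, had 16.7 and 17.5 TPM in the Hif1a-null libraries and 22.03 and 25.3 TPM in the Hif1a-intact libraries (log2 fold change -0.45; limma, adjusted p = 0.170). Pdk1, which shuts off the entry of pyruvate into the cycle and is a textbook HIF-1 target, overlapped between the groups, with 46.2 and 50.6 TPM in the Hif1a-null libraries and 72.1 and 41.4 TPM in the Hif1a-intact libraries (log2 fold change -0.17; limma, adjusted p = 0.788), and was added after its values were seen.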

How the data were processed

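The series holds 4 RNA-seq libraries in 1 table. The labels carry no replicate numbers, and those used here follow the order of the sample titles within each group. The authors quantified expression with kallisto and named the mm10 build, per the submitters' processing notes. The kallisto version and the transcript set were not given in the sources used here. Deposited values are TPM per Ensembl gene, a unit read from the values, with library totals of 955562 to 963135. Depth is unknown. Because kallisto divides reads among similar transcripts by an estimate, genes with copies can gain or lose reads.

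Symbols and coordinates came from GENCODE vM21 (GRCm38), which matched 27458 of 28987 identifiers. Groups were tested with limma 3.58.1 under R 4.3.3 (two-sided, trend and robust off) on log2 of the deposited TPM with a pseudocount of 1, keeping genes that reached 1 TPM in 2 or more libraries. The p-values were adjusted by Benjamini-Hochberg over 11909 genes. A positive fold change means higher in Hif1a-null, and low genes have their change understated on this scale. Summed values were compared with an exact permutation test (scipy 1.17.1). Copies were searched with blastn 2.17.0 against annotated transcripts. Promoter windows are from RefSeq (GRCm38.p6). Plots used matplotlib 3.10.9 (Python 3.11.15).

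Members and gene lists were chosen with earlier results of these data known. Named were all mitochondrial members, all called members, tissue or oxygen isoforms, and per complex the 2 nuclear subunits of highest level, largest rise and largest fall (at least 5 TPM in the higher group). Some genes outside this rule are marked where given. Others outside it are the Atp5g genes and Cyc1, named for their role, and Atp5k, Atp5h and Ndufab1, named for gaps seen in the values. Cox7a2l, Cox6c and Ndufc1 were named for their copies. From other lists, called genes and the 2 of smallest p are given.

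The test was checked on simulated data. Alternatives were other rescalings, pseudocounts, filters, variance models, protein-coding genes only, copies summed, and each library left out. Copies summed for mitochondrial members too was added after seeing the data. No count model was fitted, since TPM are not counts.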

Additional observations from a re-analysis of the deposited data

How the results depend on the processing

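Counts, medians and single members were recomputed under 16 alternatives (15 for Ndufb4 and Ndufaf7, which a filter of 5 TPM removes) and the ratios of sums under 9. Of 49 single members checked, 46 were called in none of theirs, the exceptions being Ndufa3, Ndufb4 and Uqcr11. The count of members called higher (1) was 2 with TPM rescaled to nuclear protein-coding genes, which adds Cox6a2, newly past the filter with both Hif1a-intact libraries at 0, so that its direction was fixed by the filter. It was 0 with no filter, 0 with at least 5 TPM in 2 libraries and 0 with nuclear or all members summed with copies, and ran from 0 to 2 with 1 library left out. The count called lower (1) was 0 with no filter and 0 with any 1 library left out. Without a Hif1a-null library few genes of any kind were called (11 higher and 8 lower without replicate 1, 0 and 0 without replicate 2; limma, with the spread then taken from the Hif1a-intact pair alone, as it is from the Hif1a-null pair alone where a Hif1a-intact library is left out), so the loss says little about single members. Summed with copies, nuclear or all, Ndufb4 turned to -0.15. The median log2 fold change of nuclear members ran from -0.25 to 0.15 with 1 library left out, and that of mitochondrial members from -0.18 to 0.0054, with -0.17 after quantile normalization. The log2 ratio of summed TPM of nuclear members (0.05) was 0.10 with copies added, under either choice of members, and ran from 0.010 to 0.087 with 1 library left out. That of mitochondrial members (-0.14) was -0.25 after quantile normalization and ran from -0.22 to -0.05 with 1 library left out. The cause of these shifts was not tested. No paired analysis was possible because the labels name no pairs across the groups. With 2 libraries a group and unknown depth, changes of 2-fold and less were often not detectable.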
